A study of Mus musculus with 4 samples.

Results

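Potassium channels set the resting potential of a neuron, end its action potentials and limit how fast it can fire again. Voltage-gated (Kv) channels assemble from 4 pore-forming alpha subunits, silent Kv subunits modify the Kv2 channels they join, and accessory proteins such as KChIPs (Kcnip genes) and dipeptidyl peptidase-like proteins (Dpp6, Dpp10) bring Kv4 channels to the membrane and shape their gating. Calcium-activated channels (Kcnma1, Kcnn genes) couple calcium entry to the afterhyperpolarisation, which in motor neurons is a main brake on the firing rate.

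The genes examined were 45 voltage-gated and calcium-activated potassium channel and accessory genes. Peak intervals sharing at least 1 bp across the 4 libraries were joined into regions, and each region was assigned by its midpoint to the protein-coding gene body that holds it, or else to the nearest body within 100 kb. This gave 1226 regions at the 45 genes, of 165822 regions assigned to a gene and 199576 merged regions in all, and each of the 45 genes had at least 1. The 2 member regions nearest to the distance limit lay 99.27 kb from Kcnv1 and 99.83 kb from Kcnma1, and the next ones beyond it lay 103.96 kb from Dpp6 and 105.44 kb from Dpp10.

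Open chromatin was profiled by ATAC-seq, which uses the Tn5 transposase to insert adapters where DNA is accessible, in cervical motor neurons of the mouse at e12.5. Cells carrying the Choline Acetyltransferase (ChAT)::GFP reporter were sorted by fluorescence from control embryos and from Hoxa5-deficient littermates, called mutants below. Hoxa5 encodes a homeodomain transcription factor of the Hox5 group, and the comparison asks which open chromatin of these neurons differs without it. Each genotype has 2 libraries, biological replicates in the words of the series' design text. The reporter is shared by all 4 libraries and marks cholinergic cells by a transgene. The labels give neither the Hoxa5 allele nor the number of embryos pooled in a library, so how much of the spread between libraries is technical is unknown.

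The lists held 115089 and 113505 intervals in controls and 127458 and 138248 in mutants. The lowest background level in a list, a stand-in for its depth, ranged from 4.39 to 6.06 tags with overlapping genotypes, and the weakest called summits held 10 to 12 tags. A region is "called" in a library when it holds a peak there. The height needed for a call grows with the local background, so a site without a call can hold more tags than that, and its chromatin need not be closed. In sorted bulk cells, fewer cells with an open site and less opening per cell cannot be told apart. All 10 motor neuron markers, Mnx1, Isl1 and Chat among them, had a peak within 1 kb of a start (or of either gene end where no start is listed) in all 4 libraries. So did 8 of 8 neural progenitor, 4 of 6 glial and 8 of 9 spinal interneuron markers, against 1 of 9 markers of blood, vessel, muscle and skin.

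The starts of potassium channel genes were open in nearly every case and in both genotypes. Of the 33 members with a start listed in the reference, 31 (93.9%) had a peak within 1 kb of it in all 4 libraries, beside 64.2% of the 17492 protein-coding genes with a listed start. Kcnh6, an ERG-type channel, had one in 3 libraries, and Kcnn4, the intermediate-conductance calcium-activated channel known from blood and epithelial cells, had none. None of the 33 had a start peak in 1 genotype alone. Such starts were rare over all 17492 genes too, at 50 genes in both controls only and 79 in both mutants only. For the 12 members without a listed start, either end of the gene body was searched, and 9 had a peak in all 4 libraries. Of the other 3, Kcnd1 and Kcnq1 had a peak within 1 kb in the mutants only. At Kcnd1 this is a matter of where intervals end, since the region there (chrX:7821832-7822785) was called in all 4 libraries, at percentiles of 43.1 and 46.0 in controls and 58.4 and 49.0 in mutants. The Kcnq1 region at the upper-coordinate end (chr7:143427929-143429056), within the limit in mutant 1, was likewise called in all 4. The silent subunit Kcnv2 had an end peak in control 1 and mutant 2. The start peaks of members were weaker than those of other genes: the lowest percentile over the 4 libraries had a median of 83.6 in members and 93.5 in all genes, where a percentile ranks the −log10 p of an interval within its own list.

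The sequences before these starts are shown because the start peaks lie over or next to them. They are the 250 bases upstream of the start, 5′ to 3′ on the gene's strand, for the highest-ranked member of 6 subfamilies whose start is the outer end of its gene body (RefSeq, mm10). Capitals mark TAAT on either strand, the core that homeodomain proteins such as Hox factors recognise.
Kcnf1 (chr12:17176889-17177138, minus strand): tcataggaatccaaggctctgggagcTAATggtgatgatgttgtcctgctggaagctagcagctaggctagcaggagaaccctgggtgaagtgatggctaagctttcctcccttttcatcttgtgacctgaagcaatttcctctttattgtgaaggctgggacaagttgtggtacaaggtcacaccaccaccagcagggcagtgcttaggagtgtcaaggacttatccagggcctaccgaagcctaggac
Kcnn3 (chr3:89519914-89520163, plus strand): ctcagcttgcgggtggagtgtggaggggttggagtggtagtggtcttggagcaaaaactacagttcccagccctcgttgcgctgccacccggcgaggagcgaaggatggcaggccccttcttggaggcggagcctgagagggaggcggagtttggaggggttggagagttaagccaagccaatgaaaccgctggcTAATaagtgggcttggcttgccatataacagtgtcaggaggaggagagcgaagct
Kcnh5 (chr12:75177333-75177582, minus strand): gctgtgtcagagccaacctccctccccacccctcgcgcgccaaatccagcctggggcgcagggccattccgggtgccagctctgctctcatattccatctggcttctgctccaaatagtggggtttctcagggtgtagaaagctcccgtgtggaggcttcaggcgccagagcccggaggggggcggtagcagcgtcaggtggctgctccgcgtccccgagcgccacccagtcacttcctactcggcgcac
Kcnq5 (chr1:21962651-21962900, minus strand): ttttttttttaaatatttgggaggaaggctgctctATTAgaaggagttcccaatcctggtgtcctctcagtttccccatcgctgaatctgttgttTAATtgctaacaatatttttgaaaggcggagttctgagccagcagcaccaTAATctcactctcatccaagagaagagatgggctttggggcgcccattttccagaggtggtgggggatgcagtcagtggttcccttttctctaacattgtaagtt
Kcna3 (chr3:107035912-107036161, plus strand): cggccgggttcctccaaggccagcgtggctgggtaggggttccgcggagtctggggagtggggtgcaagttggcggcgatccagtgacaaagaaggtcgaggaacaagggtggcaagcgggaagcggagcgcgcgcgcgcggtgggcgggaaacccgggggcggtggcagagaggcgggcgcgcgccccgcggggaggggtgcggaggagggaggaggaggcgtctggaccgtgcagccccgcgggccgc
Kcnd2 (chr6:21215096-21215345, plus strand): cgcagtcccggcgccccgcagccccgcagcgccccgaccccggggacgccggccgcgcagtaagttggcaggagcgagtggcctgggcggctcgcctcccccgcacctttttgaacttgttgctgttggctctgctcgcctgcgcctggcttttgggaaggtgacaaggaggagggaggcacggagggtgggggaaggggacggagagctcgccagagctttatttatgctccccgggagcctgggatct
The region called in all 4 libraries covered all 250 bases at Kcnn3, Kcnd2, Kcna3 and Kcnh5 and 92 at Kcnf1, and at Kcnq5 it lay inside the gene and covered 0. The 6 sequences differ widely in base composition. Kcna3 holds 31 CpG dinucleotides and Kcnd2 holds 22, while Kcnf1 holds 1 and Kcnq5 holds 3, although each of these starts had a peak in all 4 libraries. Kcnq5 holds 3 TAAT cores, Kcnf1 and Kcnn3 hold 1 each, and none lies in the other 3 windows.

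Over the 46 listed starts of members, the 300-base window from 250 bases before to 50 after the start had a median GC content of 63.7%. The median ratio of observed to expected CpG was 0.529, beside 0.763 over the 13469 starts of all genes with a peak in all 4 libraries and 0.169 over the 6537 starts with none. A TAAT core was present in 18 of 46 member windows (39.1%), beside 39.5% of open starts and 51.8% of all starts. The longer Hox and Pbx type motif TGATTNAT was present in 1 member window (2.17%), beside 2.75% of all starts, and TGATTGAC was in no member window, beside 0.785%. The Sp-type box GGGCGG was in 28 member windows (60.9%, beside 46.2% of all starts), CCAAT in 16 (34.8%, beside 38.2%), the E-box CANNTG in 33 (71.7%, beside 69.0%) and TATAAA in 1 (2.17%, beside 12.6%). Since 44 of the 46 member starts were open, the shares over open starts are the nearer ones: 1.18% for TGATTNAT, 0.787% for TGATTGAC, 66.3% for GGGCGG, 37.7% for CCAAT, 62.6% for CANNTG and 6.51% for TATAAA. Against these, the order turned for TGATTNAT and GGGCGG. The window of Kcnn4, the 1 listed start with no peak, had a GC content of 59.7% and 6 CpG, at a ratio of 0.226. Each motif was read on both strands and may overlap another. A match is only a match of letters.

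**Figure D1:**
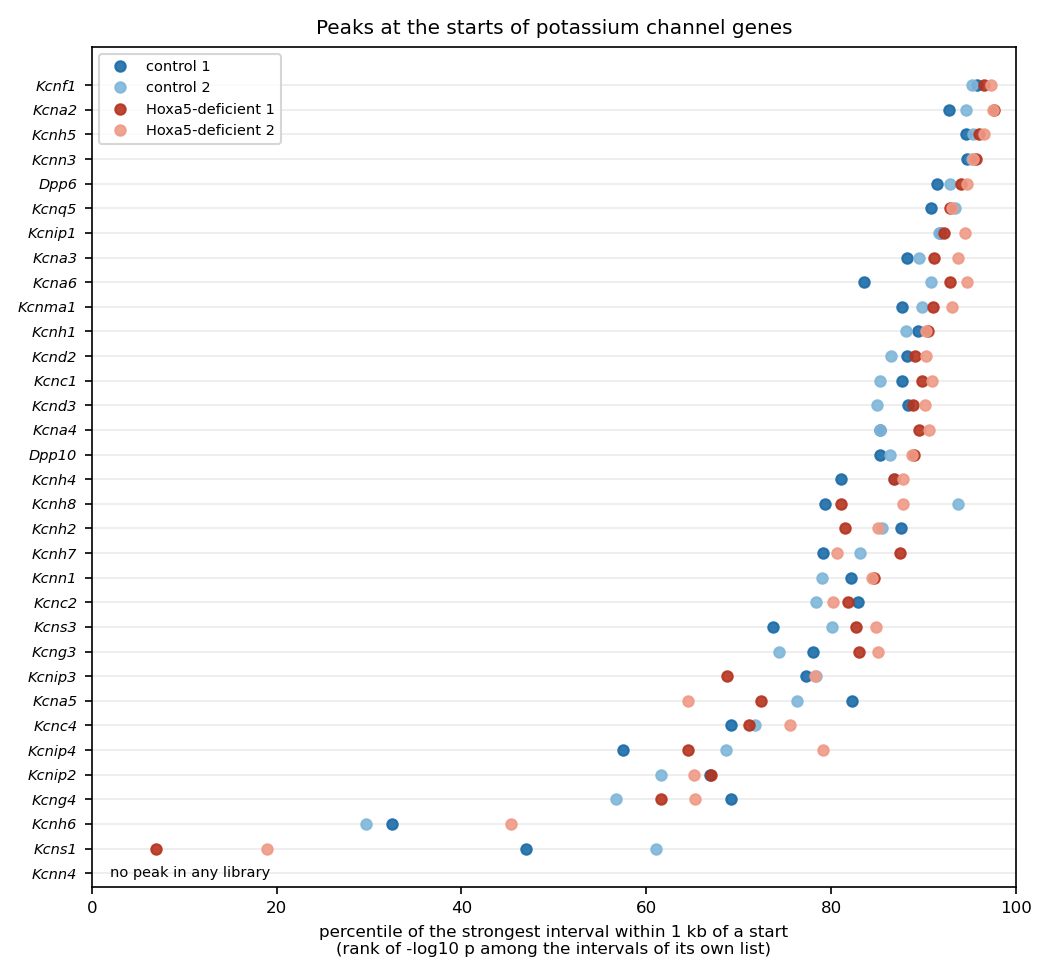
Percentile of the strongest interval within 1 kb of a listed start for the 33 members that have one, with 1 point per library (x axis, rank of −log10 p among the intervals of the same list). Most genes lie above 60 in all 4 libraries, Kcns1 and Kcnh6 lie lower, and Kcnn4 has no peak.

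Among start peaks, that of Kcnf1, a silent Kv5 subunit, stood highest by the lowest of its 4 percentiles, at 95.7 and 95.3 in controls and 96.5 and 97.3 in mutants. It was followed by Kcnn3 (94.7 and 95.2 against 95.7 and 95.4), Kcnh5 (94.5 and 95.4 against 96.0 and 96.5) and Kcna2, a Kv1 subunit of the axon (92.7 and 94.6 against 97.6 and 97.5). That of Kcns1, a silent Kv9 subunit, was the weakest start peak present in every library. It ranked at 47.0 and 61.0 in the controls, above its 6.91 and 19.0 in the mutants. The other region of Kcns1, 2.74 kb from the start, had the opposite order, at 73.2 and 76.3 in the controls and 86.25 and 87.5 in the mutants. Lists differ in length, so a percentile shows the standing of a peak within its own library and no change by itself.

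The strongest member regions called in every library lay at listed starts, at other gene ends, inside genes and outside them. The region over the upper-coordinate end of Kcnn1, a small-conductance calcium-activated (SK) channel, covered chr8:70865041-70866265. Its summit reached 550 and 565 tags (controls) and 690 and 1034 tags (mutants), at percentiles of 98.1 to 99.3. A region inside Kcnq3, a subunit of the M-type channel, reached 348 and 321 tags against 347 and 475 (chr15:66239007-66240424). At Kcnh2, the ERG channel, the region over the upper-coordinate end held 400 and 354 against 344 and 490 tags (chr5:24351250-24352884), at percentiles of 96.9 and 97.0 against 95.6 and 95.8. Kcnf1, Kcnq1, Kcnn3 with 2 regions, Kcnh5, Kcnh8 and Kcna1 completed the first 10, all with percentiles of 93.5 or more in each library. Tag numbers rise with depth, so they are given only to show the height of each peak, and comparisons between libraries rest on ranks.

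The subfamilies varied in how high their shared regions ranked. For regions called in all 4 libraries, the median of the lowest percentile was 69.5 for silent subunits, 68.0 for Kv3 genes, 62.4 for the EAG, ERG and ELK family, 62.3 for Kv1 and 61.1 for Kv7 genes. It was 51.3 for Kv2, 50.7 for Kv4, 50.3 for Kv4 accessory and 46.0 for calcium-activated channel genes. Over all 332 such member regions it was 57.1, beside 62.7 over all assigned regions. The order was not the same with only the stronger peaks, where the median of Kv2 was 19.7 and that of the EAG, ERG and ELK family 64.7. Among all peaks, the Kv2 median rests on 5 regions of Kcnb2 and the Kv3 median on 13 regions. The part of gene length in the order of subfamilies was not tested.

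Over all member regions, more were called in the mutants alone than in the controls alone. Of the 1226 member regions, 175 (14.3%) were called in both mutants and neither control (mutant-only) and 26 (2.12%) in both controls and neither mutant (control-only). Over all regions assigned to a gene, 9.16% were mutant-only and 3.5% control-only. The ratio of mutant-only to control-only regions was thus 6.73 at the members and 2.61 over all genes. Another 332 regions (27.1%, beside 34.7% over all genes) were called in all 4 libraries, 120 in 3, 56 in 1 library of each genotype and 517 in a single library. With the same number of intervals taken from each list, 126 mutant-only and 32 control-only regions were left, or 11.7% mutant-only beside 7.54% over all genes. Without control replicate 1 or 2, where a single control is left to define the group, control-only regions numbered 136 and 144 and mutant-only regions 217 and 226. Without mutant replicate 1 or 2 they numbered 37 and 42 against 362 and 306. The mutant-only shares were 19.44% and 20.05% without a control, beside 13.45% and 13.46% over all genes. They were 31.92% and 28.41% without a mutant, beside 23.65% and 19.77%. The looser definition thus raised the mutant-only share over all genes too, and the control-only share over all genes is not given for these settings. Regions were assigned to genes by position only, and regions of 1 gene are not independent of each other.

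The libraries held 576 and 568 member regions in controls and 749 and 826 in mutants. As a share of each library's assigned regions this was 0.606% and 0.623% in controls, a mean of 0.615% ± 0.0118 (SD, n = 2). In mutants it was 0.738% and 0.742%, a mean of 0.740% ± 0.00294 (SD, n = 2). The groups did not overlap, and the difference of 0.126 percentage points had an exact two-sided permutation p of 0.33, the smallest that 2 against 2 libraries allow, so this design cannot pass 0.05. Markers of 3 other cell types had more control-only than mutant-only regions. Neural progenitor markers had 17 control-only and 11 mutant-only regions, from 102 and 95 called in controls to 81 and 92 in mutants. Glial markers had 16 and 12 (136 and 129 against 127 and 123 called) and spinal interneuron markers 17 and 14 (161 and 139 against 131 and 143 called). Motor neuron markers had 0 and 40 (124 and 113 against 165 and 179 called). Those of blood, vessel, muscle and skin had 3 and 9 (35 and 34 against 35 and 49 called). Control-only and mutant-only regions were thus 11.2% and 7.24% of progenitor, 7.62% and 5.71% of glial and 7.56% and 6.22% of interneuron marker regions. They were 0% and 17.3% at motor neuron markers and 4.17% and 12.5% at those of blood, vessel, muscle and skin. The shares were 2.12% and 14.3% at the members and 3.5% and 9.16% over all genes. The part of a different mix of cells in the potassium channel counts was not tested.

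**Figure D2:**
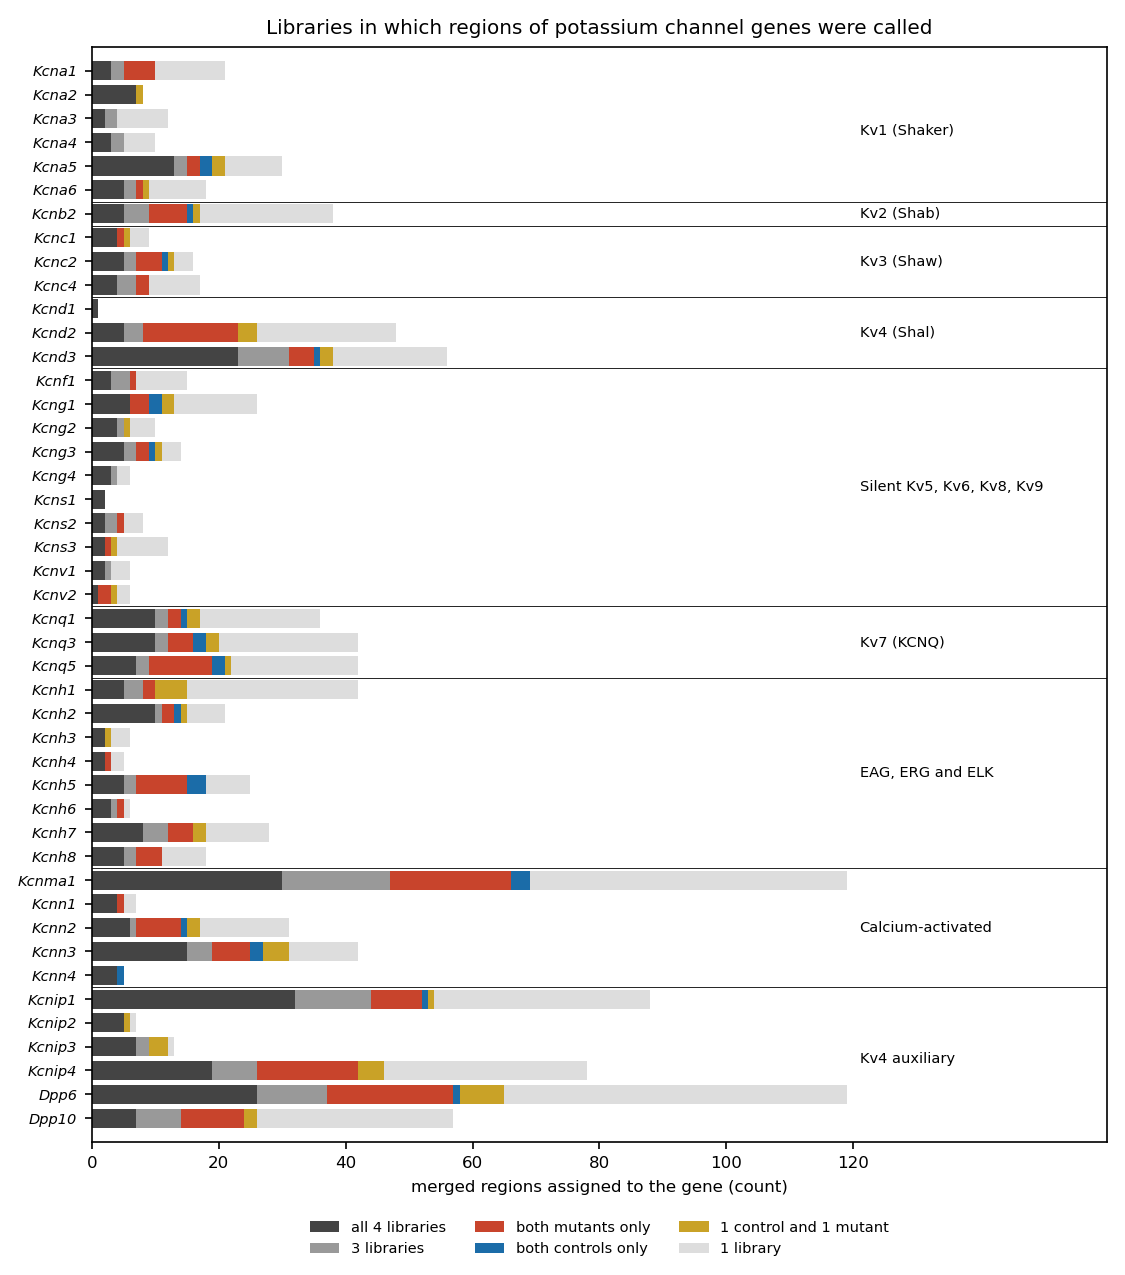
Merged regions assigned to each of the 45 genes (x axis, count), coloured by the libraries that called them and grouped by subfamily. Dpp6, Kcnma1, Kcnip4 and Kcnd2 have the most mutant-only regions, from 15 to 20 each, while Kcnip1 has 8 of 88.

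By gene, 32 of 45 members had more mutant-only than control-only regions, 1 had more control-only (Kcnn4), 11 had neither and Kcna5 had 2 of each. Among genes with 5 or more regions, 74.4% of the 43 members and 47.6% of all 8500 genes had more mutant-only regions, and 2.33% and 15.3% had more control-only ones. Of these 43 members, 18 had more regions in both mutants than in either control and 1 (Kcnn4) had fewer. The 18 were Kcna1, Kcnb2, Kcnc1, Kcnc2, Kcnc4, Kcnd2, Kcng2, Kcnh2, Kcnh7, Kcnh8, Kcnma1, Kcnn2, Kcnn3, Kcnq5, Kcnip1, Kcnip4, Dpp6 and Dpp10. Over the 8500 genes with 5 or more regions these shares were 29.2% and 8.42%, against 41.9% and 2.33% of the members. Members held more regions per gene, 1226 at 45 genes, beside 165822 at 17859 genes with a region. A gene with few regions more often has no region of either kind, and these gene shares were not matched for region number or gene length.

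The A-type current activates below threshold and delays firing. Its pore-forming subunits, the 3 Kv4 genes, had 19 mutant-only and 1 control-only regions, and its 6 accessory genes had 54 and 2. These were 18.1% and 0.95% of the Kv4 regions and 14.9% and 0.55% of the accessory regions, beside 9.16% and 3.5% over all genes. Inside bodies of 300 kb or more the mutant-only share over all genes was 13.6%. Kcnd2 (Kv4.2) had 15 mutant-only and 0 control-only of 48 regions. It was called at 10 and 16 regions in controls and at 36 and 25 in mutants. Its paralog Kcnd3 (Kv4.3), with 56 regions, had 4 against 1, and 23 of its regions were called in all 4 libraries. Kcnd1 had 1 region, present in all 4. Among the accessory genes, Dpp6 had 20 mutant-only and 1 control-only of 119 regions, with 57 and 43 regions in controls and 65 and 82 in mutants. Kcnip4 had 16 against 0 of 78, with 32 and 31 regions in controls and 55 and 51 in mutants. Dpp10 had 10 against 0 of 57, with 11 and 19 in controls and 43 and 31 in mutants. Kcnip1 had 8 against 1 of 88 regions and the largest number called in all 4 libraries, 32. The shorter accessory genes Kcnip2 and Kcnip3 had neither kind.

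Calcium-activated channels had 33 mutant-only and 7 control-only of 204 regions (16.2% and 3.43%, beside 9.16% and 3.5% over all genes). The control-only share was thus close to that of all genes. Kcnma1, the large-conductance BK channel, had 19 mutant-only and 3 control-only of 119 regions, with 44 and 60 regions in controls and 70 and 91 in mutants. The SK genes Kcnn2 and Kcnn3 had 7 against 1 and 6 against 2, and Kcnn1 had 1 against 0. Kcnn4 was the 1 member with the reverse, with 1 control-only region and 4 regions called in all libraries.

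Kv7 genes encode the slow, non-inactivating M-type channels of neurons. The 3 members had 16 mutant-only and 5 control-only of 120 regions (13.3% and 4.17%, beside 9.16% and 3.5% over all genes). All 3 have bodies of 300 kb or more, and 90.8% of their regions lay inside them. Inside bodies of that length the shares over all genes were 13.6% and 3.34%, so the Kv7 shares were near those of long genes. Kcnq5 had 10 mutant-only and 2 control-only of 42 regions, with 17 and 10 regions in controls and 29 and 24 in mutants. Kcnq3 had 4 against 2 of 42, and Kcnq1, best known from heart and inner ear, had 2 against 1 of 36. The EAG, ERG and ELK family had 22 mutant-only and 4 control-only of 151 regions (14.6% and 2.65%). In this family Kcnh5 had 8 against 3, the most control-only regions of any member together with Kcnma1. Kcnh7 and Kcnh8 had 4 against 0 each, Kcnh2 had 2 against 1, Kcnh1 2 against 0 of 42 regions, Kcnh4 and Kcnh6 1 against 0, and Kcnh3 had neither.

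The remaining voltage-gated genes had smaller numbers. Kcnb2 (Kv2.2) had 6 mutant-only and 1 control-only of 38 regions (15.8% and 2.63%). Of the Kv3 genes, whose fast channels serve rapid firing, Kcnc2 had 4 against 1, Kcnc4 2 against 0 and Kcnc1 1 against 0. The 3 together had 7 against 1 of 42 regions (16.7% and 2.38%). The Kv1 genes, whose low-threshold channels act at the axon, had 8 against 2 of 99 regions (8.08% mutant-only, below the 9.16% of all genes). Of these, 5 mutant-only regions were at Kcna1, which had 6 and 5 regions in controls and 14 and 14 in mutants. Kcna2, Kcna3 and Kcna4 had neither kind. The 10 silent subunits together had 10 against 3 of 105 regions (9.52% mutant-only, close to the 9.16% of all genes), and Kcng2, Kcng4, Kcns1 and Kcnv1 had neither. Kv1 and silent subunit genes are short, and 18.2% and 30.5% of their regions lay inside the gene body, against 93.7% for the accessory genes.

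**Figure D3:**
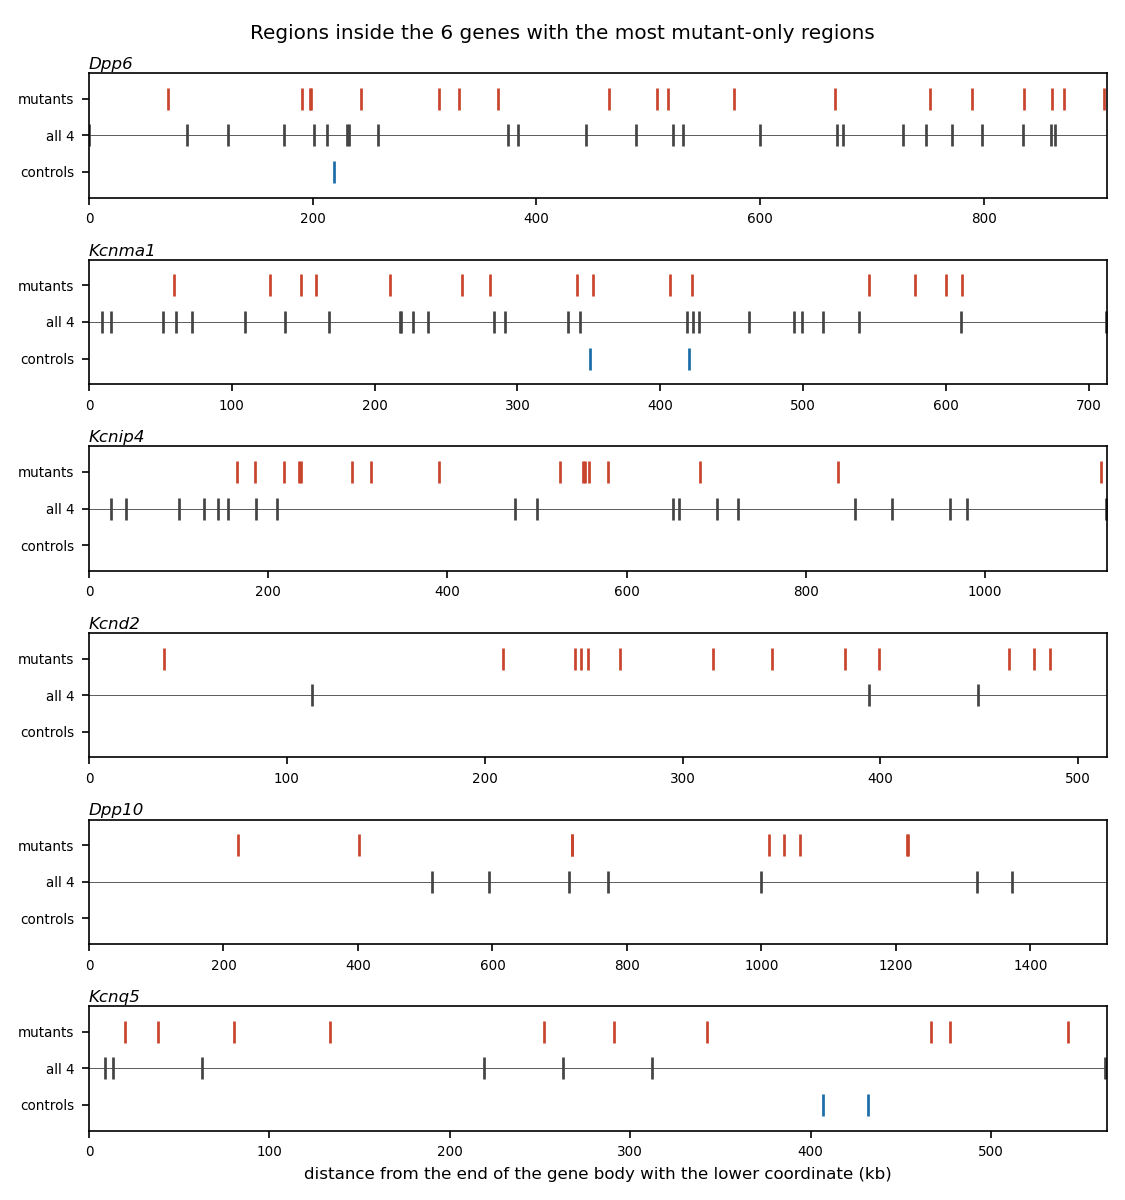
Position of regions inside the 6 members with the most mutant-only regions (x axis, kb from the end with the lower coordinate), with marks for regions called in both mutants only, in all 4 libraries and in both controls only. Mutant-only marks are spread along each gene body and do not sit at 1 place.

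The 6 members with the most mutant-only regions (Dpp6, Kcnma1, Kcnip4, Kcnd2, Dpp10 and Kcnq5) are long, from 514.5 kb for Kcnd2 (chr6:21215346-21729805) to 1514 kb for Dpp10 (chr1:123332138-124845815). Kcnma1 spans 712.8 kb (chr14:23292288-24005110), Dpp6 910.1 kb (chr5:26817357-27727500), Kcnip4 1136 kb (chr5:48389503-49525122) and Kcnq5 564.3 kb (chr1:21398399-21962650). They held 90 of the 175 mutant-only regions (51.4%) in 463 regions, and the other 39 members held 85 in 763 (11.1%). Of the 145 mutant-only regions at members with a listed start, 1 lay within 1 kb of a start, and the median distance was 114.6 kb. For the 280 member regions called in all 4 libraries, 44 lay within 1 kb and the median distance was 50.5 kb. Over all genes the median distances were 63.1 kb for mutant-only regions and 23.8 kb for regions called in all 4, and the shares within 1 kb were 1.07% and 24.1%. Member regions called in a single library had a median of 112.1 kb, so a large distance was not particular to mutant-only regions.

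The share of mutant-only regions was higher in longer genes, over all genes too. Inside bodies of 300 kb or more it was 13.6% over all genes and 16.2% at the members (114 of 703). In bodies of 100 to 300 kb it was 10.1% and 14.4% (15 of 104), in those of 20 to 100 kb 6.14% and 6.98% (6 of 86), and in shorter ones 2.66% and 3.23% (1 of 31). Over bodies of 100 kb or more together it was 16.0% at the members (129 of 807), beside 11.8% over all genes. Control-only regions in the longest class were 1.42% of the members' regions (10 of 703) and 3.34% of those of all genes. In the class of 100 to 300 kb the order was reversed, at 5.77% (6 of 104) and 3.70%, and in the other classes it was 1.16% and 3.42% (20 to 100 kb) and 3.23% and 2.63% (shorter). Inside bodies the members had 9.32 regions per 100 kb, beside 10.2 for all protein-coding genes.

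**Figure D4:**
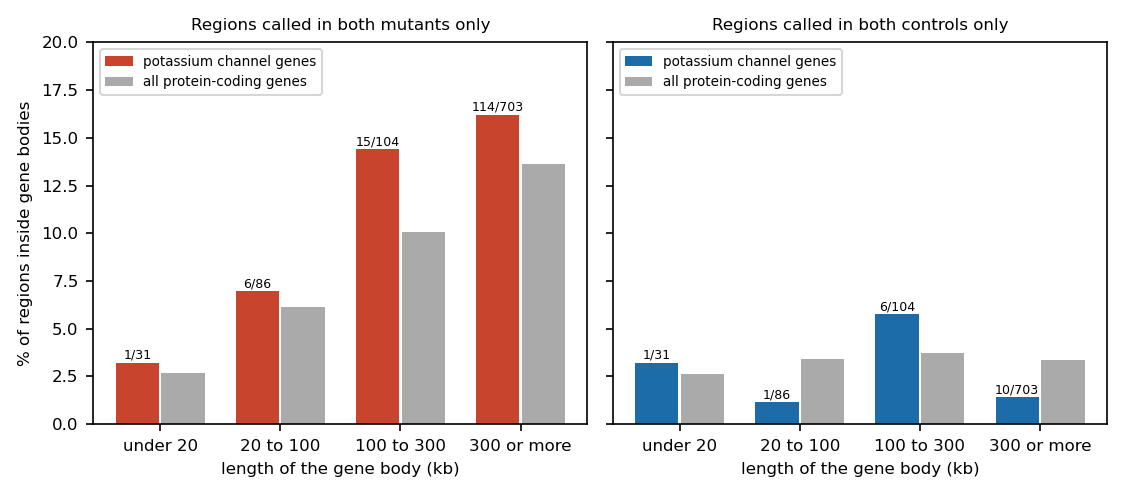
Share of regions inside gene bodies that were called in both mutants only (left) or in both controls only (right), by the length of the gene body, for the members (coloured, with the count over the number of regions) and for all protein-coding genes (grey). The mutant-only share rises with length in both sets and is 16.2% and 13.6% in the longest class.

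The strongest mutant-only region lay inside Kcnma1 (chr14:23552544-23553983, 1440 bp). Its summit held 80 and 151 tags in the mutants, at percentiles of 83.8 and 88.4 of their lists, and no peak was called there in either control. A region inside Kcnq5 (chr1:21436251-21437386) held 73 and 95 tags, at 83.0 and 82.9. One inside Kcnh7 (chr2:63042923-63044052) held 52 and 79 tags and one inside Kcnd2 (chr6:21252914-21253567) held 51 and 81. The next lay inside Kcnn3, 28.0 kb outside Kcnma1, inside Kcnip4 and inside Kcnc2, with 39 to 84 tags. The Kcnc2 and Kcnn3 regions lay 17.8 and 23.4 kb from a listed start, and the Kcnq5 region 525.1 kb from one.

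Control-only regions were fewer. The strongest lay inside Kcnn4 (chr7:24373425-24374277), with 45 and 30 tags in the controls, at percentiles of 68.6 and 62.4. The next were 26.4 kb outside Kcna5 (chr6:126561752-126562078, 40 and 36 tags), inside Kcnn3 (25 and 26 tags) and 3.36 kb outside Kcnma1 (57 and 48 tags). The other 4 of the first 8 lay at Kcng1 with 2, Kcnma1 and Kcnh5, with 18 to 25 tags each. Over all member regions of each kind, the median of the lower percentile was 31.1 for control-only and 30.7 for mutant-only regions.

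Regions called in all 4 libraries allow a comparison over 1 set of regions. Their −log10 p was ranked in each library among the regions that all 4 libraries called, so that the lists compared have equal length. At 130 of 332 member regions (39.2%, beside 27.6% over all assigned regions) both mutants ranked above both controls, and at 81 (24.4%, beside 33.7%) both controls ranked above both mutants. The median of the difference of mean percentiles, mutants minus controls, was 1.98 at the members and −0.741 over all genes. Most member regions lie in long genes, where the order over all genes also ran toward mutants. Inside bodies of 100 kb or more mutants were above at 34.8% and controls at 28.4% of all such regions, with a median difference of 0.72, and at 44.6% and 19.0% of the 184 of the members, with a median of 3.20. Within 1 kb of a listed start 11 of 44 member regions had mutants above and 7 controls above (25.0% and 15.9%, beside 25.3% and 29.1% of all such regions). Farther from starts it was 101 and 62 of 236 (42.8% and 26.3%, beside 28.1% and 35.3%). With 2 libraries a genotype no single region can be tested.

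This order varied between subfamilies. Silent subunits had mutants above at 16 of 30 regions and controls above at 3, Kv1 genes at 17 and 6 of 33, Kv4 accessory genes at 42 and 24 of 96 and calcium-activated channels at 25 and 13 of 59. Kv7 genes (6 and 11 of 27) and the EAG, ERG and ELK family (9 and 16 of 40) had the reverse of the members' order. Over all assigned regions controls were also above more often, at 33.7% of regions against 27.6% with mutants above. Both families thus ran in the direction of all assigned regions. Inside bodies of 100 kb or more, which all Kv7 genes have, the order over all genes was the other one, at 34.8% with mutants above and 28.4% with controls above. Kv4 genes had 10 and 6 of 29, Kv3 genes 3 and 2 of 13 and Kcnb2 2 and 0 of 5. Whether subfamilies differ from each other was not tested, because regions of 1 gene are not replicates. Among single genes, Kcnma1 had mutants above at 17 and controls above at 4 of 30 regions, and Dpp6 at 15 and 3 of 26. Kcnip3 leaned the other way, with controls above at 6 of 7 and mutants above at 0. Its median difference was −11.95 percentiles, beside 17.9 for Kcnma1. Of the other KChIP genes, Kcnip4 had mutants above at 7 and controls above at 1 of 19 regions, and Kcnip1 at 15 and 10 of 32. Controls were above at 3 of 5 regions of Kcnip2 and of Kcnh5, 3 of 4 of Kcnn4, 6 of 10 of Kcnh2 and 5 of 10 of Kcnq1. Mutants were above at 0 of Kcnip2 and Kcnn4, 1 of Kcnh5 and Kcnq1 and 3 of Kcnh2.

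**Figure D5:**
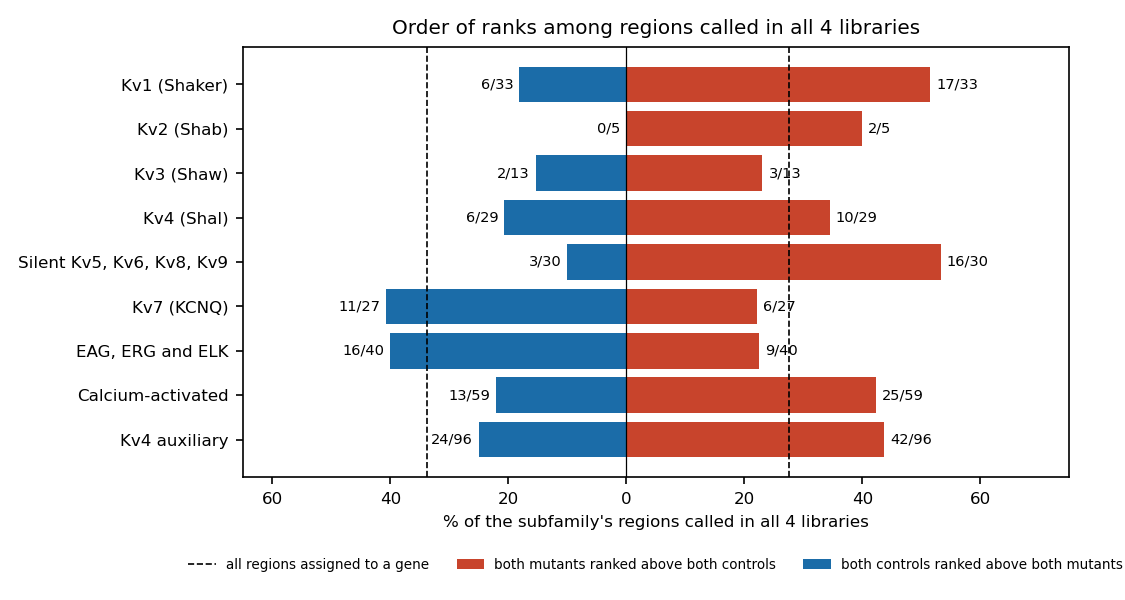
Share of each subfamily's regions called in all 4 libraries at which both mutants ranked above both controls (right) or both controls above both mutants (left), with the counts; dashed lines mark the shares over all assigned regions, 27.6% and 33.7%. Silent, Kv1, Kv2, Kv4, calcium-activated and accessory genes lie past the right line, and Kv7 and the EAG, ERG and ELK family past the left one.

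The largest shifts toward mutants were at Kcnma1, Kcnd3 and Kcnip1. A region inside Kcnma1 (chr14:23343345-23344374) held 19 tags in each control and 68 and 93 in the mutants. Its percentile among shared regions was 12.5 and 19.8 against 67.8 and 65.6. A region inside Kcnd3 (chr3:105611890-105612759) held 16 and 16 against 51 and 77 tags, at 5.74 and 11.6 against 57.5 and 60.3. Another region 97.0 kb outside Kcnma1, another 26.1 kb outside Kcnd3 and 1 inside Kcnip1 shifted by 48.8 to 49.8 percentiles. In all 5 the mutants lay far above the controls with no overlap, as the rule that chose them requires.

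The largest shifts toward controls were inside Kcnip1 (2 regions), Kcnn3 and Kcnh7 and outside Kcnh5. A region inside Kcnip1 (chr11:33873021-33873941) held 58 and 33 tags against 14 and 15 in the mutants, at shared percentiles of 61.9 and 46.9 against 2.49 and 1.41. The Kcnip1 region with a shift toward mutants (chr11:33878886-33879637, 26 and 24 against 107 and 151 tags) lies close by, so nearby regions of 1 gene ranked in opposite directions, a pair singled out after its values were seen. At Kcnn3 (chr3:89652954-89653765) the shared percentiles were 63.9 and 64.7 against 17.0 and 8.38, with 64 and 52 tags against 22 and 21. At Kcnh7 (chr2:63117125-63118127) they were 73.9 and 59.9 against 29.2 and 18.8, with 79 and 44 tags against 28 and 28.

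Progenitor and interneuron markers ranked lower in mutants in the same comparison. Neural progenitor markers had mutants above at 7 and controls above at 28 of 48 shared regions, with median percentiles of 56.0 and 51.3 in controls and 32.3 and 32.0 in mutants. Spinal interneuron markers had 16 and 47 of 88, with medians of 44.3 and 45.3 against 33.2 and 31.7. Glial markers had 20 and 29 of 74 and motor neuron markers 26 and 22 of 79. The shares with mutants and controls above were 14.6% and 58.3% for progenitor and 18.2% and 53.4% for interneuron markers. For glial markers they were 27.0% and 39.2%, and for motor neuron markers 32.9% and 27.85%. Over all assigned regions they were 27.6% and 33.7%, so the glial shares were near those of all genes. The potassium channel regions had medians of 43.3 and 43.8 in controls and 51.0 and 52.0 in mutants. The part of the marker shift in that of the members was not tested.

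Other ion channel genes had mutant-only shares between those of the members and of all genes. That of motor neuron markers, 17.3%, was above the members' 14.3%. Sodium and calcium channel subunits (36 genes, 855 regions) had 11.3% mutant-only and 3.51% control-only regions, a ratio of 3.23. Inward rectifier and two-pore potassium channels (28 genes, 295 regions), which carry resting and leak currents, had 10.2% and 3.39%, a ratio of 3. Other potassium channel accessory subunits (15 genes, 220 regions) had 11.8% and 2.27%, a ratio of 5.2 that was the nearest of the 3 to the members' 6.73. At shared regions these accessory subunits had mutants above at 26 and controls above at 10 of 52, a wider split than at the members. Start peaks in all 4 libraries were present at 22 of 28, 16 of 23 and 9 of 13 of their genes with a listed start, against 31 of 33 members. No test of these differences was made, because regions of 1 gene are not replicates and the members were chosen with earlier results known.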

How the data were processed

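ATAC-seq peak lists of 2 control and 2 Hoxa5-deficient libraries were assigned to groups by labelled genotype. Per the submitters' processing notes the tools were Bowtie2 2.3.4.3 with SAMtools 1.9, MACS2 2.2.4 and FastQC 0.11.9, on mm10. Their parameters, filters and any shift for Tn5 are not given in the sources used here. For each summit the deposited lists hold a score capped at 1000, a fold enrichment (ratio), and a p-value and q-value on the −log10 scale, with no header. The weakest entries have a −log10 p of 2. These values are the authors', and ranks or thresholds were applied to each list by itself. The other deposited columns hold positions.

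The whole-number tag pileup at a summit was solved from the fold and −log10 p by the formulas of MACS2, and gave back the deposited −log10 p within 0.001 for 100% of summits to the precision printed. Gene bodies (21887 protein-coding genes), starts and sequences came from RefSeq tables of GRCm38.p6, which shares its coordinates with mm10. Of the 45 members, all matched by symbol and 33 had a listed start, 46 starts in all. Exons were not annotated. Coordinates are 1-based. The steps were tested on simulated data, with Python 3.11.15, pandas 2.3.3, NumPy 2.4.6, SciPy 1.17.1 and matplotlib 3.10.9. The members and gene lists were chosen with earlier results of these data known.

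Every member was named by its region counts. Regions described in detail were, per direction, the 8 group-specific regions with the highest lower percentile and the 5 shared regions with the largest rank shift, and the 10 regions called in all 4 libraries with the highest lowest percentile. Sequences were printed only for starts at the outer end of a gene body, a limit set after the tables were seen, as were the splits by gene length and by distance to a start. Alternatives were a stricter q, equal interval numbers, other overlaps, summit windows, other distances, ranks by fold and each library left out.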

Additional observations from a re-analysis of the deposited data

How the results depend on the processing

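Of 114 recomputed values, 81 stayed within 1.5 times the count, within the 95% interval of the share or within the spread between libraries, and no direction reversed. The interval of a share counts regions as independent, which regions of 1 gene are not, so it is only a rough mark. With only peaks of −log10 q of 5 or more, 215 member regions were called in all libraries, 17 were control-only and 21.0% were mutant-only (beside 12.1% over all genes). Median lowest percentiles of shared regions were then 48.9 for Kv1, 19.7 for Kv2, 46.9 for Kv3, 39.5 for Kv4, 54.6 for silent and 64.7 for EAG, ERG and ELK genes, with percentiles counted within shorter lists. With equal numbers of intervals 11.7% were mutant-only. Leaving out each library in turn loosens the definition of its genotype's regions. Control-only regions then numbered 37 to 144, with no share over all genes to set beside them, and mutant-only regions 217 to 362. The mutant-only share was 19.4% to 31.9%, beside 13.5% to 23.7% over all genes. Regions called in all remaining libraries numbered 343 to 384. Mutants ranked higher at 45.5% to 48.7% of shared regions, beside 35.5% to 37.3% over all genes. Controls ranked higher at 31.0% to 35.9%, beside 42.5% to 45.1%. Fewer libraries overlap less often, so these shares rose over all genes too. The difference in share was 0.118 to 0.135 percentage points, and start peaks were at 31 to 32 members. The subfamily medians were 56.1 to 64.3 for Kv1, 60.8 to 66.0 for Kv7 and 51.3 to 58.9 for EAG, ERG and ELK genes, and those of the other 6 subfamilies moved by less than the spread between libraries. Read depth limits what was called: a site below 10 to 12 tags is absent from a list. No paired analysis was possible because the counts come from no model and the replicate numbers in the labels are not said to mark a shared litter, batch or day.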
